A study of Mus musculus with 2 samples.

Results

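The genes described here encode the HSP90 machine and the folding machinery around it, together with small heat shock proteins, BAG proteins and heat shock factors. They were chosen by symbol, as 42 genes of 10 roles, from the 22206 gene probe sets measured in the series, of which 19572 carry a gene symbol in the annotation used. A probe set with that symbol was found for 38 of the 42 genes, each with 1 probe set. Hsp90ab1, Stub1, Cct6a and Hsf1 have no named probe set here and were not analysed. The cells were F2, a mouse vascular endothelial line from a UV-induced tumour with a mixed BALB/c and C57BL/6 background. All were labelled as transfected with hBACCS2, a fusion of a plant light sensor and STIM1 that opens the Ca2+ channel ORAI1 under blue light and that was expressed from a CAG promoter. Cells labelled blue light positive received light of 470 nm at about 0.4 mW per square mm in pulses of 2 min, separated by 18 min, over 4 h, and cells labelled blue light negative served as the control. Total RNA of each condition was hybridised to 1 Clariom S array, so no value below has a replicate, no p-value is given, and the single array per condition limits the precision of each ratio.

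The control is not described in the same way throughout the sources. The sample labels and the methods give hBACCS2 to both cultures, while the design text of the series says that the negative control lacked it, and the treatment note of the control also speaks of irradiation. The labels are followed here, and the ratios would compare other conditions if either note held. The plasmid reached a part of the culture only, so that each signal averages cells with and without hBACCS2, and fewer cells of a type cannot be told apart from less RNA per cell. Of 12 endothelial markers, 11 had a signal over 24 on both arrays, among them Pecam1 at 26121 without and 22321 with blue light and Cdh5 at 284467 and 231925, whereas Cldn5 was at 4.50 and 5.03. The 11 had a median log2 ratio of -0.23, with 5 above 0 and 6 below. The lowest were Nos3 at -0.68 and Kdr at -0.65, the highest was Vwf at 0.57, and 0 passed a 2-fold change. Of 9 measured smooth muscle and fibroblast markers 3 passed that signal on both arrays, none above 92.1, as did 1 of 6 epithelial markers, Krt8 at 25.5 and 41.9, and 0 of 5 leukocyte markers. Their part in the ratios below was not tested.

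HSP90 is an abundant chaperone that brings kinases, steroid receptors and other clients to their final fold, in a cycle of ATP hydrolysis timed by co-chaperones, and it receives many of these clients from HSP70. The ring-shaped chaperonins enclose whole proteins, TRiC in the cytosol for actin and tubulin, and HSP60 with HSP10 in mitochondria. Small heat shock proteins hold unfolded chains, BAG proteins release nucleotide from HSP70, and HSF1 is the factor that induces many of these genes in stressed cells by binding repeats of the motif GAA in alternating orientation, named heat shock elements.

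Of the 38 measured genes, 37 had a signal over 24 on both arrays, the cutoff of the study's methods, which lies close to the median of the 5222 negative control probes (26.2 without and 26.5 with blue light). With blue light, Hsph1 and Chordc1 were higher past the 2-fold cutoff, 0 genes were lower, and 35 stayed within it. The 2 genes make up 5.41% of the 37, beside 0.958% of all 11695 gene probe sets over the same signal. A ratio under 0.5 was found for 1.37% of all probe sets, and 2.33% were past the cutoff on either side. The median log2 ratio of the 37 genes was 0.03, beside -0.01 over all probe sets. When the arrays were centred on their medians both moved down alike, to -0.01 and -0.05. Log2 ratios above 0 were found for 20 genes and below 0 for 17. Without Hsph1 and Chordc1 the median of the other 35 was 0.02. At a ratio above 1.5 the count was 5, or 13.5% beside 7.55% of all probe sets, with Hspb8, St13 and Pfdn1 joining the first pair, and 0 genes were under the inverse of that ratio beside 8.47% of all probe sets. Where a signal over 100 on both arrays was asked, the counts of chaperone genes stayed at 2 and 0 for the 2-fold cutoff, beside 0.662% higher, 0.987% lower and 1.65% either way of all probe sets, and at 5 and 0 for the lesser fold, beside 5.77% and 7.79%. The group as a whole therefore had a median near that of the array, with a few members far above it.

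**Figure D1:**
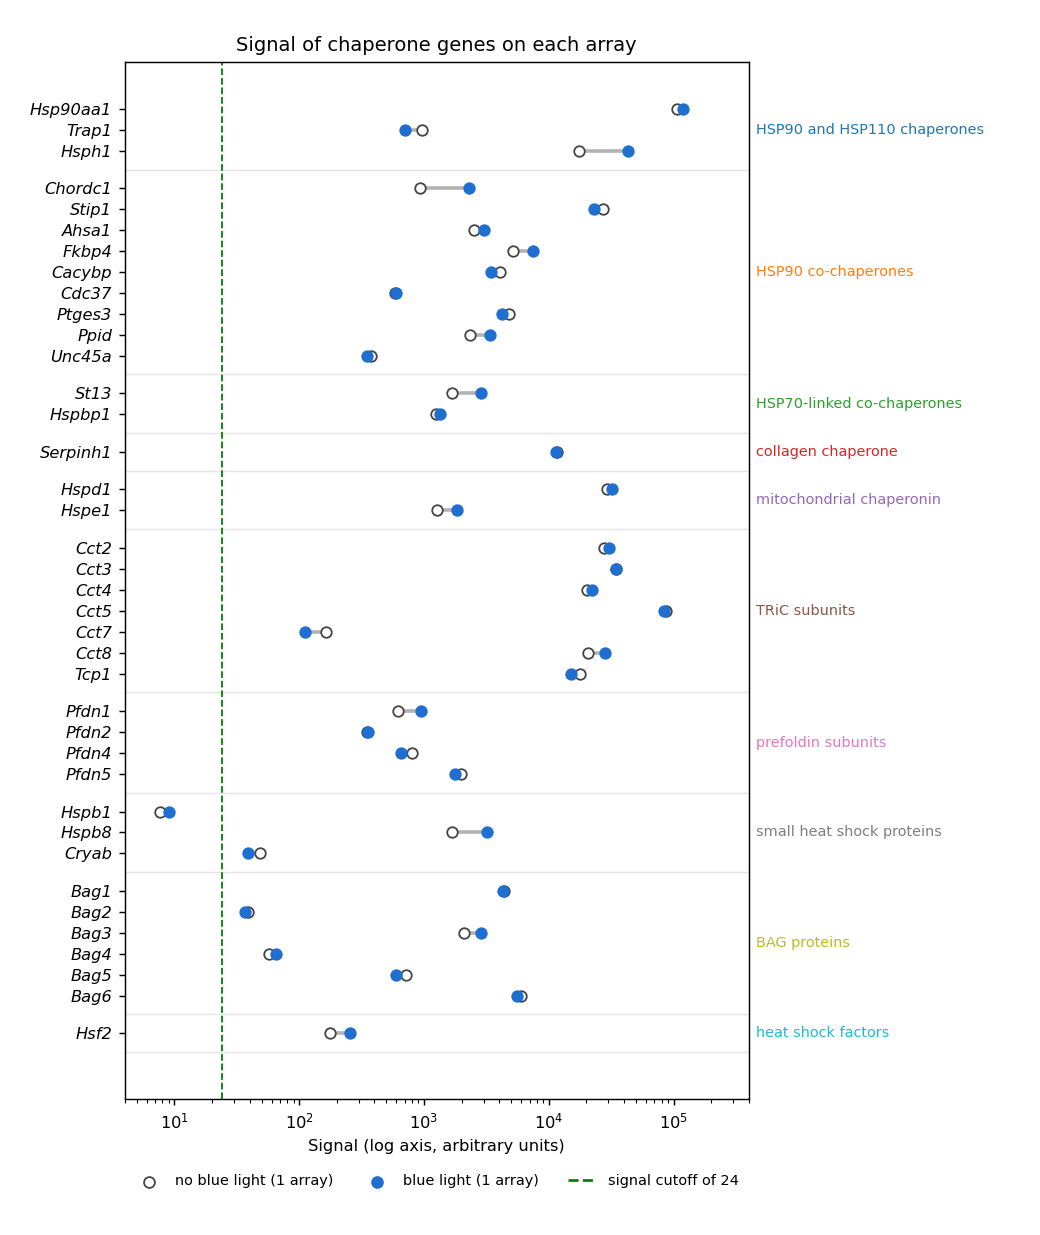
Signal of each of the 38 measured chaperone genes on a log axis, with an open circle for the array without blue light and a blue circle for the array with it, by role, and the signal cutoff of 24 as a dashed line. The longest bars to the right belong to Hsph1 and Chordc1, and Hspb1 is the only gene left of the cutoff.

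Hsph1, an HSP110 protein that exchanges nucleotide on HSP70 and holds unfolded proteins, gave 17588 on the control array and 42984 after irradiation. Its ratio was 2.44 and its log2 ratio 1.29. Among the 500 gene probe sets nearest in mean signal, 0 had a higher ratio, and the central 95% of them ran from -0.76 to 0.53 on the log2 scale. Chordc1, a zinc-binding partner of HSP90, went from 920.8 to 2273, which is 2.47-fold and 1.30 as a log2 ratio. Of its 500 neighbours in signal, 2 had a higher ratio. Such a comparison describes the spread of these arrays at like brightness and is not a replicate error. Both genes were past the cutoff under each scaling tried. They were also past it when 24 was added to every signal, a step that could change ratios at their brightness only a little.

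**Figure D2:**
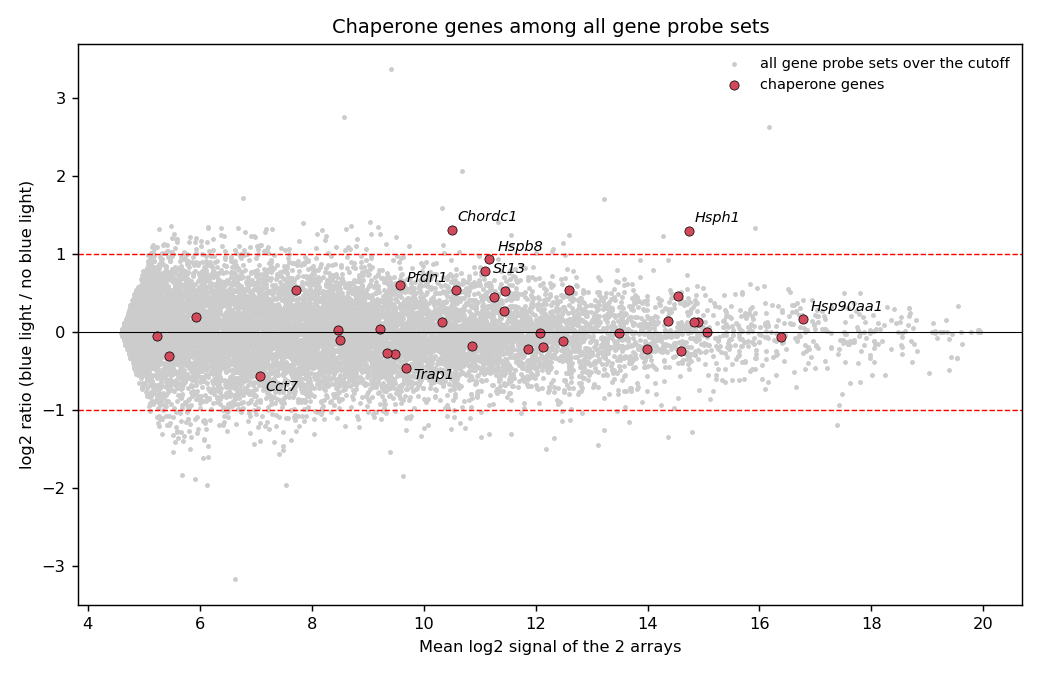
Log2 ratio of blue light over no blue light against the mean log2 signal of the 2 arrays for gene probe sets over a signal of 24 on both, in grey, with the 37 chaperone genes in red and dashed lines at a 2-fold change. Hsph1 at 1.29 and Chordc1 at 1.30 lie above the upper line, Hspb8 at 0.93 lies just under it, and most other chaperone genes lie inside the grey cloud.

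The sequence around the transcription start was read for heat shock elements. The genes were chosen by name and not by sequence, but known targets of HSF1 are among them, so a high share of elements is partly built into the choice. RefSeq windows of GRCm38.p6, from 250 bases before to 50 bases after each listed start, matched 33 of the 42 genes by symbol. Hsp90aa1, Hsp90ab1, Ppid, St13, Cct4, Pfdn1, Cryab, Bag4 and Hsf1 had no entry. A run of 3 units was searched on both strands as GAA, TTC and GAA with any 2 bases after each of the first pair, and 2 units as GAANNTTC and as TTCNNGAA, each its own reverse complement and each part of the longer motif. The 3-unit motif stood in 198 of 32851 windows, or 0.603%, which belong to 179 of 27025 genes, or 0.662%. Of the 33 chaperone genes with a window 4 held it, namely Hsph1, Chordc1, Hspd1 and Hspe1, and the last 2 share a single run. The stretches of 30 bases that hold these runs are printed to show them side by side, 5′ to 3′ on the strand of the gene, with the matched bases in capitals.
Chordc1, chr9:18292260-18292289, plus strand: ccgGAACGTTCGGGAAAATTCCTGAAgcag
Hsph1, chr5:149636279-149636308, minus strand: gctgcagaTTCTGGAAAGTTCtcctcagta
Hspe1, chr1:55088053-55088082, plus strand: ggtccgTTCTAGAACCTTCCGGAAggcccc
Hspd1, chr1:55088053-55088082, minus strand: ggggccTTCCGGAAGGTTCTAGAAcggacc
The run in Chordc1 had 5 units and began 4 bases before the start, the run in Hsph1 had 3 units and lay after the start, and the run shared by Hspe1 and Hspd1 had 4 units. A match is a feature of the sequence, and binding of a factor was not measured.

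Hsph1 has 2 listed starts, 21 bases apart. The 250 bases before the upstream one (chr5:149636337-149636586, minus strand) hold a further 2-unit match, shown in capitals because Hsph1 is 1 of the 2 genes past the cutoff.
Hsph1: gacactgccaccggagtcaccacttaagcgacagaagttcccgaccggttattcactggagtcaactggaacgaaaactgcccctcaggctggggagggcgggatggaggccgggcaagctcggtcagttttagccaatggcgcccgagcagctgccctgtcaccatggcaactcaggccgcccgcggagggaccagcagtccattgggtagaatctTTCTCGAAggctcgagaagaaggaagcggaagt

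The 2-unit motif GAANNTTC stood in 7.86% of all windows and TTCNNGAA in 8.52%. Either was found for 13 of the 33 chaperone genes, against 17.0% of all 27025 genes with a window. Of the 13, 10 were measured over the signal cutoff and had a median log2 ratio of 0.49, while the 20 measured genes without a match had a median of -0.12 and ranged from -0.57 to 0.53. Measured genes with no window are in neither set, and most of them were above 0. They were St13 at 0.77, Pfdn1 at 0.60, Ppid at 0.53, Bag4 at 0.19, Hsp90aa1 at 0.17, Cct4 at 0.14 and Cryab at -0.32. Their sequences could shift either median. Over all measured genes the medians were 0.01 for 1199 with a match and -0.02 for 7331 without. For the 3-unit motif, 55 genes of the whole array were measured, with a median of 0.11, and the 2 of them that were higher past the cutoff were Chordc1 and Hsph1. That is 3.64%, beside 0.979% of the 8475 measured genes without the run. The 51 outside the chaperone genes had a median of 0.09, and 0 of them were higher past the cutoff, a count too small to set against that share. Hspd1 and Hspe1 were within the cutoff. No test was made of these shares, and the genes were chosen with their ratios known from earlier work on these arrays.

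**Figure D3:**
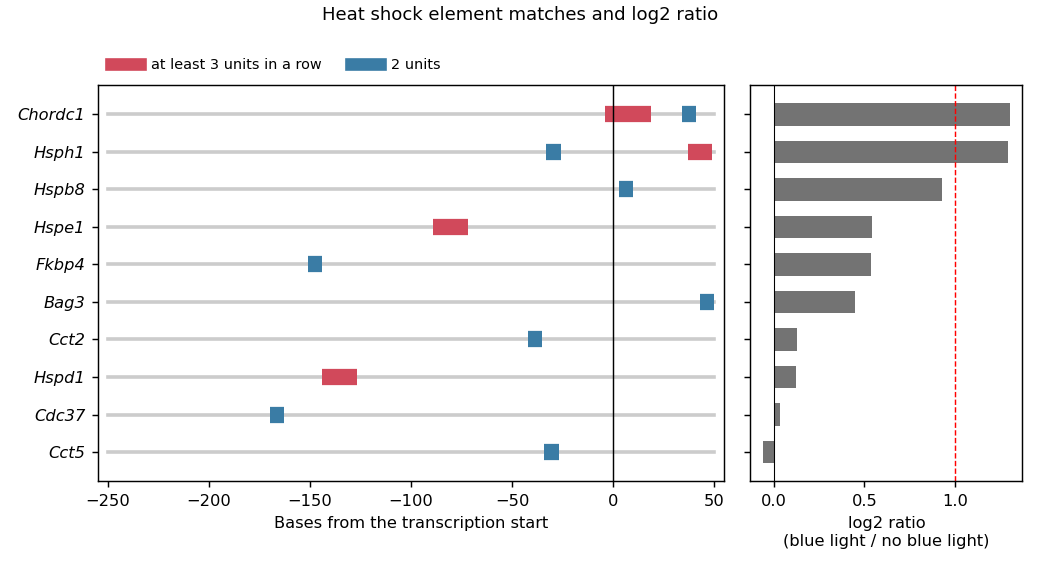
Left, position of heat shock element matches in bases from the transcription start for the 10 measured chaperone genes that hold one, with runs of at least 3 units in red and 2 units in blue, for Hsph1 from the upstream one of its listed starts. Right, their log2 ratios, from 1.30 for Chordc1 to -0.06 for Cct5, with the 2-fold line dashed.

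Among the HSP90 chaperones themselves, Hsp90aa1, the stress-inducible cytosolic form, had signals of 105465 and 118580. Its log2 ratio was 0.17, and 120 of its 500 neighbours in signal had a higher one. Trap1, the mitochondrial HSP90, had signals of 970.0 and 703.3 and a log2 ratio of -0.46. Neither passed the cutoff. Of the 3 measured genes in the role of HSP90 and HSP110 chaperones, the HSP110 gene Hsph1 alone did.

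The 9 co-chaperones of HSP90 had a median log2 ratio of 0.03, which turned to -0.01 under median scaling, and their values ranged from -0.25 to 1.30. Next after Chordc1 came the peptidyl-prolyl isomerases of steroid receptor complexes, Fkbp4 and Ppid. Fkbp4 went from 5115 to 7420.5, a log2 ratio of 0.54, with 19 of 500 neighbours higher. Ppid went from 2334 to 3365, a log2 ratio of 0.53, with 36 neighbours higher. These 2 genes had like log2 ratios, both inside the 95% range of their neighbours. Ahsa1, which speeds the ATPase of HSP90, had signals of 2523 and 3030.2 and a log2 ratio of 0.26. Cdc37, which delivers kinases, was at 586.0 and 600.0, and Unc45a, a myosin chaperone, was at 377.0 and 349.4. On the negative side stood Stip1, the adaptor that joins HSP70 to HSP90, with signals of 27151 and 22825 and a log2 ratio of -0.25. Cacybp, which links ubiquitin ligases to their targets, had a log2 ratio of -0.22, and Ptges3, the p23 protein that stabilises closed HSP90, had -0.20. Calls were made for Chordc1 only in this role, and 5 genes had log2 ratios above 0 and 4 below.

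St13, the HIP protein that steadies HSP70 in its ADP form, had signals of 1669 and 2856. The log2 ratio was 0.77, a ratio of 1.71, and 6 of its 500 neighbours were higher. It was within the 2-fold cutoff but outside the 95% range of its neighbours, which ended at 0.64. Hspbp1, a nucleotide exchange factor of HSP70, had signals of 1236 and 1353 and a log2 ratio of 0.13. Serpinh1, the collagen chaperone HSP47 of the endoplasmic reticulum, had signals of 11605 and 11509, and the sign of its log2 ratio of -0.01 turned under quantile and loess scaling.

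Hspd1 and Hspe1 encode HSP60 and HSP10, the ring and lid of the mitochondrial chaperonin, and are divergent neighbours. RefSeq lists 2 starts for Hspd1, 311 bases apart, and the window of 1 of them holds the run. Hspd1 had signals of 29454 and 32098, a log2 ratio of 0.12. Hspe1 had signals of 1263 and 1837, a log2 ratio of 0.54, with 32 of 500 neighbours higher. Both were within the cutoff. The 215 bases between that start and the start of Hspe1 (chr1:55087933-55088147, plus strand, reading towards Hspe1) carry the 4-unit run named above, in capitals, and are printed because both genes share them.
Hspd1-Hspe1: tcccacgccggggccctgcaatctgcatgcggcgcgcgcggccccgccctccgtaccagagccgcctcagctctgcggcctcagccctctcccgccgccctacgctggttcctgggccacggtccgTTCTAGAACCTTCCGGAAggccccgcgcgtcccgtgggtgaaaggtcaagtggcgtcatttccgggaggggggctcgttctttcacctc

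Of the 7 TRiC subunits measured, 3 had log2 ratios above 0 and 4 below, 0 were past either fold cutoff, and the median log2 ratio was -0.01, or 0.04 under quantile and loess scaling. The highest was Cct8, from 20521 to 28147, a log2 ratio of 0.46 with 24 of 500 neighbours higher. Cct2, Cct4, Cct3 and Cct5 had log2 ratios of 0.13, 0.14, -0.01 and -0.06, and Tcp1 had -0.23. The lowest was Cct7, from 164.7 to 111.2, a log2 ratio of -0.57 with 62 of 500 neighbours lower. Cct7 was by far the dimmest of the 7, and the central 95% of its neighbours ran from -0.95 to 0.97.

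Prefoldin passes unfinished actin and tubulin chains to TRiC. Pfdn1 had signals of 620.5 and 942.2, a log2 ratio of 0.60 and a ratio of 1.52. The other 3 prefoldin genes of the 42 had log2 ratios of 0.02 for Pfdn2, -0.28 for Pfdn4 and -0.18 for Pfdn5. Of the 2 further subunits, which belong to the comparison lists, Pfdn6 went from 2960 to 4675, a log2 ratio of 0.66 with 20 of 500 neighbours higher. Vbp1, named to complete the complex after its value was seen, had 0.19. The subunits thus lay on both sides of 0, with Pfdn1 and Pfdn6 at the upper end. Of the 500 neighbours of Pfdn1, 26 had a higher ratio, which leaves it inside their 95% range.

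**Figure D4:**
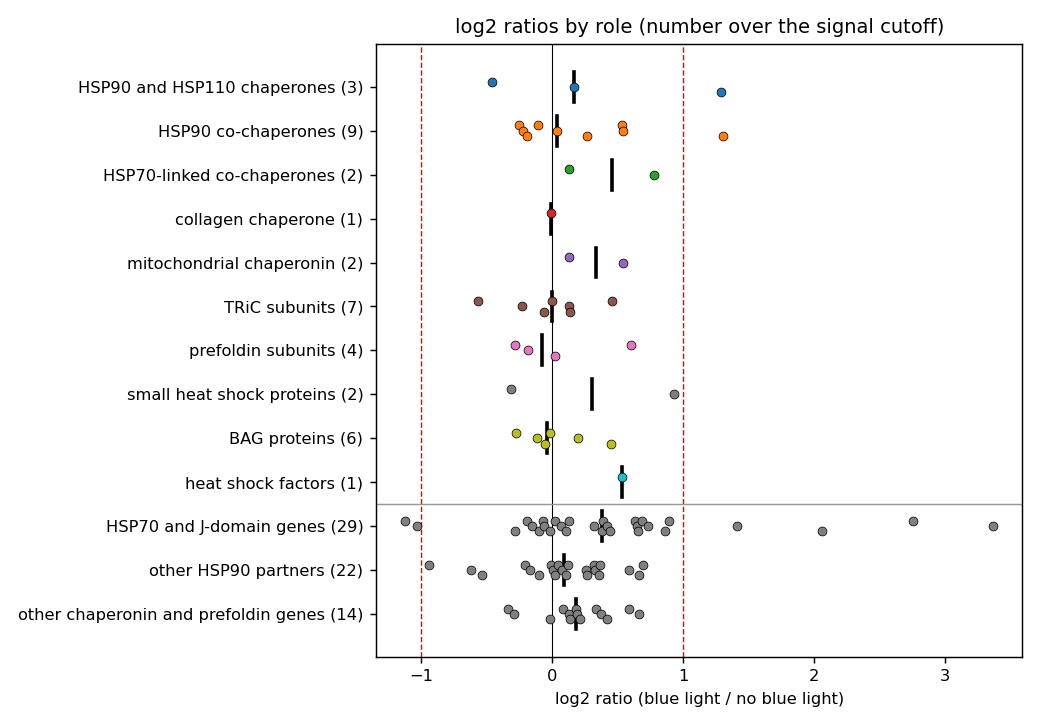
Log2 ratio of blue light over no blue light for every gene over the signal cutoff, by role, with the number of genes in brackets, the median of each role as a black bar and dashed lines at a 2-fold change. The lists under the grey line are not among the 42 genes. Hsph1 and Chordc1 are the only points of the upper 10 rows past a dashed line, and the TRiC and BAG medians, whose signs turn under quantile scaling, lie at -0.01 and -0.04.

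Of the 3 small heat shock proteins, Hspb8 alone had a log2 ratio outside the 95% range of its neighbours. Hspb8, which acts with BAG3 to clear misfolded proteins, went from 1666 to 3173, which is 1.90-fold and 0.93 as a log2 ratio. Of its 500 neighbours, 3 were higher, and their central 95% ended at 0.66. Cryab, alpha B-crystallin, had signals of 48.8 and 39.2, near the negative controls, and a log2 ratio of -0.32. Hspb1, which encodes HSP27, had signals of 7.60 and 8.99, under the cutoff on both arrays. It is left out of every count and median of ratios except those with no signal cutoff. The 2-unit matches in the windows of Hspb8, Hspb1, Bag3, Cct2 and Fkbp4 are set out because their log2 ratios differ while their motif is alike.
Hspb8, chr5:116422844-116422873, minus strand: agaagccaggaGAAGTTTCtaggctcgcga
Bag3, chr7:128523603-128523632, plus strand: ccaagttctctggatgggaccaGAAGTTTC
Cct2, chr10:117063399-117063428, minus strand: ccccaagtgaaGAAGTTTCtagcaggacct
Hspb1, chr5:135887791-135887820, plus strand: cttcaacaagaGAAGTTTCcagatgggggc
Fkbp4, chr6:128438789-128438818, minus strand: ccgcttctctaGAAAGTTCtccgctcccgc
The match in Hspb8, Bag3, Cct2 and Hspb1 has the same 8 bases, at log2 ratios of 0.93, 0.45 and 0.13 for the first 3 and with Hspb1 too dim to read. Outside the 42 genes, only windows of the comparison lists were read for these 8 bases. There they stood in the windows of Mkks, at 0.42, and of Hspb6, at -0.97, so the octamer occurred at ratios of either sign. Hspb1 holds another 2-unit match, 97 bases before its start. The match in Bag3 ends at the last base of its window, so whether it runs on into further units could not be seen.

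The 6 BAG genes had a median log2 ratio of -0.04, or 0.01 under quantile scaling, and 0 were past either cutoff. Bag3, the partner of HSPB8 and itself a heat-inducible gene, had signals of 2090 and 2855 and a log2 ratio of 0.45, with 49 of 500 neighbours higher. Bag1, Bag5 and Bag6 had log2 ratios of -0.02, -0.27 and -0.12, the last belonging to a chaperone for proteins bound for the membrane. Bag2, at 38.5 and 37.0, and Bag4, at 56.8 and 65.0, were close to the negative controls and can show little. Hsf2, a heat shock factor that pairs with HSF1, had signals of 176.3 and 254.9 and a log2 ratio of 0.53, which 59 of its 500 neighbours passed.

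Other genes of the same pathways were counted in the same way, from lists written for comparison with earlier results of these data known. HSP70 and J-domain genes, which feed clients to HSP90, counted 4 higher genes of 29, and 2 genes on the lower side. The higher genes make up 13.8%, beside 0.958% higher and 1.37% lower over all probe sets. The median log2 ratio of the HSP70 and J-domain genes was 0.38. Their higher genes were Dnajb1, Dnajb4 and the near-identical copies Hspa1a and Hspa1b, whose probes may not tell them apart, from 1.41 for Dnajb4 to 3.36 for Hspa1b, and their lower ones were Dnaja2 and Dnajc30 at -1.12 and -1.03. At a ratio above 1.5 the counts were 11 of 29 here and 5 of 37 for the genes of this report. That is 37.9% and 13.5%, a difference that was not tested, beside 7.55% of all probe sets. Of 22 other HSP90 partners, 0 passed the cutoff, and their median was 0.09. The widest values were -0.94 for Itgb1bp2, a muscle chaperone known as melusin, 0.70 for Ahsa2, a paralogue of Ahsa1, and 0.66 for Rpap3, a scaffold that binds HSP90. Of 14 other chaperonin and prefoldin genes 0 passed, with a median of 0.18. Beside Pfdn6, the widest values were 0.59 for Pdrg1, a prefoldin-like protein, and 0.42 for Mkks, a chaperonin-like gene. Of 8 other genes in the small heat shock list only Hspb6 and Hspbap1 passed the signal cutoff. Hspb6, the protein HSP20, went from 882.5 to 449.4, a log2 ratio of -0.97, opposite in sign to Hspb8. Hspbap1, which binds a small heat shock protein, went from 68.3 to 33.6, a log2 ratio of -1.03 that counts as lower. Among the other heat shock factors and regulators, 0 of 4 passed, and Hikeshi, which carries HSP70 into the nucleus, and Hsbp1, which binds HSF1, had log2 ratios of -0.31 each.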

How the data were processed

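Each culture of F2 cells, irradiated or not, was read on 1 Clariom S array. The authors deposited log2 signals, normalized in Filgen's Microarray Data Analysis Tool (version 3.2). The kind of normalization and any background correction were not given in the sources used here, and a wrong scaling would move all ratios of like signal together. The table holds 28846 rows, and 6640 control rows were left out. Symbols were taken from GEO's annotation of the platform, which leaves 2634 of the gene probe sets unnamed. Ratios were computed as the signal with blue light over that without, with no further scaling. Higher calls needed a ratio above 2, lower calls one under 0.5, and both arrays had to exceed a signal of 24. The methods give these cutoffs without naming the array, and the legend of the published plot names the control signal. That both arrays must pass was taken from a second, slanted line drawn there, and the control array alone was tried as an alternative added after the data were seen. The rule with both arrays gave 112 higher and 160 lower probe sets, more on each side than the genes the study reported, so its selection was not reproduced exactly. With 1 array per condition no test was made, and the neighbours of a gene are the 500 gene probe sets nearest in mean log2 signal. Heat shock elements were searched in RefSeq promoter sequences of GRCm38.p6. The steps were tested on simulated data with planted ratios and motifs. The simulated noise was smaller than the spread of these arrays, so the rate of false calls here was not measured. Alternatives were median, quantile and loess scaling (span 0.3), no signal cutoff, a signal over 24 on either array or over 100 on both, 24 added to both signals, a fold of 1.5, and the mean per symbol. All 42 genes could be named, and of each other list those past the cutoff and up to 3 more with the widest log2 ratios. Genes and lists were chosen with earlier results of these data known. Python 3.11.15 with numpy 2.4.6, pandas 2.3.3 and statsmodels 0.14.6 was used.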

Additional observations from a re-analysis of the deposited data

How the results depend on the processing

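The count of 2 genes higher past the 2-fold cutoff, Hsph1 and Chordc1, and of 0 lower held under the 3 scalings, the 3 other signal cutoffs, 24 added to both signals and the mean per symbol. With the signal cutoff on the control array alone, a choice made after seeing the data, they were 2 and 0 as well. The mean per symbol could not change these counts, because each measured gene has 1 probe set. No signal cutoff tried could drop Hsph1 or Chordc1, whose signals lie far above 24 and 100. The added 24 is also too small beside these signals to remove the calls, and it left log2 ratios of 1.29 for Hsph1 and 1.28 for Chordc1. Of these settings, only the scalings could have removed their calls. At a fold of 1.5 the count of higher genes was 5. The median log2 ratio over the chaperone genes ran from -0.01 under median scaling to 0.08 under quantile scaling, with no signal cutoff or with a cutoff of 100, and no alternative moved it by 0.1 or more. Values near 0 changed sign with the scaling, namely Cdc37 and Pfdn2 under median scaling and Bag1, Cct3 and Serpinh1 under quantile and loess scaling. Of the genes outside the 42, Hspb6 passed the cutoff under median scaling at -1.02. Dnajc30 and Hspbap1 lost their calls with 24 added, at -0.72 and -0.68, and where a signal over 100 on both arrays was asked. No paired analysis was possible because each condition has 1 array. Cryab, Bag2 and Bag4 lie close to the negative controls, which limits what their ratios can show.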
